A study of Mus musculus with 12 samples.

Results

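The expression of 10 genes of TWEAK-Fn14 and TNF signalling was examined in mouse back skin: the ligands *Tnfsf12* (TWEAK) and *Tnf*, the receptors *Tnfrsf12a* (Fn14), *Tnfrsf1a* (TNFR1) and *Tnfrsf1b* (TNFR2), and *Tnfaip3*, *Nfkbia*, *Birc3*, *Traf1* and *Relb*, which act below the receptors. The genes were taken from a list of names, chosen with earlier results of these data known. All 10 were found among the 56923 genes of the count table and passed the filter on low counts. Bulk RNA-seq had been done on back skin of 12 female C57BL/6 mice aged 8 to 10 weeks, 3 in each of 4 groups. WT littermates received vehicle cream (WT control) or 5% imiquimod cream (WT IMQ) on shaved skin for 6 days, and mice bred as *Lcn2*-/- received the same creams (*Lcn2* KO-labelled control and *Lcn2* KO-labelled IMQ). The sample labels call the genotype a knockdown and the treatment of the controls none. Imiquimod (IMQ) is a Toll-like receptor agonist whose cream gives psoriasis-like lesions in mouse skin, and *Lcn2* encodes lipocalin 2, a secreted protein made by neutrophils and inflamed epithelium.

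TWEAK binds the receptor Fn14, whose cytoplasmic tail recruits TRAF adaptors and the cIAP ubiquitin ligases, and it activates both the canonical NF-kappa B pathway and the noncanonical pathway that ends in RelB. TNF signals through TNFR1, which most cells carry, and through TNFR2, which is found mainly on immune and endothelial cells. NF-kappa B in turn induces its own inhibitors, among them I kappa B alpha (*Nfkbia*) and the ubiquitin-editing enzyme A20 (*Tnfaip3*), and in keratinocytes it drives chemokines that attract neutrophils.

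Each mouse had between 16448226 and 28592110 counts on genes, and the lowest count of any of the 10 genes in any mouse was 33. Values are given as CPM, a gene's counts scaled to a common library size after TMM normalization. *Lcn2*, the gene named in the genotype, was counted in every library: 6.28, 8.64 and 4.57 CPM in WT control, 61.2, 183 and 76.1 CPM in WT IMQ, 10.5, 9.22 and 15.9 CPM in KO-labelled control, and 34.3, 29.9 and 49.8 CPM in KO-labelled IMQ mice. The log2 difference of KO-labelled from WT mice was 0.87 (SE 0.41, adjusted p = 0.794, edgeR) in controls and -1.49 (SE 0.40, adjusted p = 0.0525) under IMQ. The KO-labelled control counts therefore go against the label. Under IMQ the KO-labelled counts were lower than in WT, short of the threshold, but not absent. They were called higher than in KO-labelled controls (log2 fold change 1.67, SE 0.40, adjusted p = 0.0121, edgeR). The reason was not tested, and every direction below between the genotypes is one between the labels. Keratinocyte markers were abundant in all mice, and the summed level of 8 retina markers, listed because the extraction text names retinas, was at most 3.21 CPM. WT IMQ mouse 2 stood apart from the other WT IMQ mice: without it, 1288 genes were higher and 1438 lower in KO-labelled IMQ than in WT IMQ skin, against 405 and 481 with all mice, so results of that comparison are given with and without it. Without WT IMQ mouse 1 or 3 the counts were 0 and 0, and without a KO-labelled IMQ mouse at most 1 and 3.

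NF-kappa B binds the kappa B motif, and the promoters of the genes that held it are shown beside that of Fn14, the receptor with the clearest response below. The kappa B consensus (GGG, a purine, 2 bases of any kind, 2 pyrimidines and CC) was searched on both strands in the 250 bases before each RefSeq start site (GRCm38.p6). Of the 10 genes, 8 had a promoter in the table. These genes had 9 promoter windows, as *Tnfaip3* had a second start site. A match was found in 2 of the 9, for *Nfkbia* and *Tnfaip3*, and 7.25% of all 32851 promoters of the same length held a match. The other *Tnfaip3* window (chr10:19011964-19012213, minus strand) held none. The capitals mark the match. The *Nfkbia* promoter (chr12:55492648-55492897, minus strand) begins its match 29 bases before the start site. The *Tnfaip3* matches begin 125 and 12 bases before the start site, and each is shown with the bases around it (chr10:19015516-19015545 and chr10:19015411-19015432, minus strand). The *Tnfrsf12a* promoter (chr17:23677450-23677699, minus strand) held no match in this window and was 58.8% G and C. A match describes letters only and is not a measured binding site.
Nfkbia: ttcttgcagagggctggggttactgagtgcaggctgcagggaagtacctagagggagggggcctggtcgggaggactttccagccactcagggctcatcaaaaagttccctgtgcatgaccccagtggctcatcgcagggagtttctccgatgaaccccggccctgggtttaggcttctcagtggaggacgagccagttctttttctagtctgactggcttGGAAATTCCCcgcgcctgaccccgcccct
Tnfaip3, upstream match: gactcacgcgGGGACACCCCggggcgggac
Tnfaip3, match near the start: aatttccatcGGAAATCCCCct
Tnfrsf12a: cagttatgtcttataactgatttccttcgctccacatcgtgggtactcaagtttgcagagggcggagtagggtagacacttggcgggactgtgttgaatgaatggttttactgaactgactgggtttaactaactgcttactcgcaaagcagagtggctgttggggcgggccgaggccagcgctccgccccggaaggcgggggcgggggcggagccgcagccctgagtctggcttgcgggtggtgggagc

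Among the ligands and receptors of WT skin after IMQ, the receptor Fn14 stood out while its ligand TWEAK did not follow it. *Tnfrsf12a* was at 23.8, 16.9 and 22.2 CPM in WT control and at 68.2, 68.8 and 61.5 CPM in WT IMQ mice. Every WT IMQ mouse lay above every WT control mouse, by a wide margin. The log2 fold change was 1.66 (SE 0.20), a 3.16-fold rise, with an adjusted p of 0.000112 in edgeR's quasi-likelihood test. *Tnfsf12* was at 11.6, 20.4 and 10.05 CPM in WT control and at 7.33, 13.6 and 8.04 CPM in WT IMQ mice, so the groups overlapped (log2 fold change -0.54, SE 0.31, adjusted p = 0.217). The highest mouse of each of these groups was mouse 2. Part of the *Tnfsf12* signal is uncertain, because 731 of its 1515 exonic bases also belong to the read-through gene *Tnfsfm13*, and how the counting treated shared or opposite-strand reads is not given in the sources used here. *Tnfsfm13* itself had between 0.581 and 2.46 CPM.

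The same pair was then read in KO-labelled skin. The difference of its IMQ response from that in WT missed the threshold in edgeR (adjusted p = 0.0598 for *Tnfsf12* and 0.0597 for *Tnfrsf12a*). *Tnfsf12* was at 10.5, 6.45 and 6.52 CPM in KO-labelled control and at 20.2, 17.8 and 17.0 CPM in KO-labelled IMQ mice. The groups did not overlap, and the IMQ mice lay close together. The rise was 2.34-fold (log2 fold change 1.22, SE 0.31, adjusted p = 0.0157). *Tnfrsf12a* was at 28.0, 31.3 and 21.6 CPM in KO-labelled control and at 33.9, 51.4 and 35.5 CPM in KO-labelled IMQ mice. The groups were separate, but only mouse 2 of the IMQ group stood well above the controls. The rise was 1.49-fold (log2 fold change 0.58, SE 0.19, adjusted p = 0.0445). Read-through *Tnfsfm13* was called higher as well (log2 fold change 1.30, SE 0.41, adjusted p = 0.0375), so the *Tnfsf12* reads it shares cannot be assigned. That call held in 1 of 6 fits that left out a mouse, without IMQ mouse 2 (0.0293), and its adjusted p reached 0.127 without control mouse 3.

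**Figure D1:**
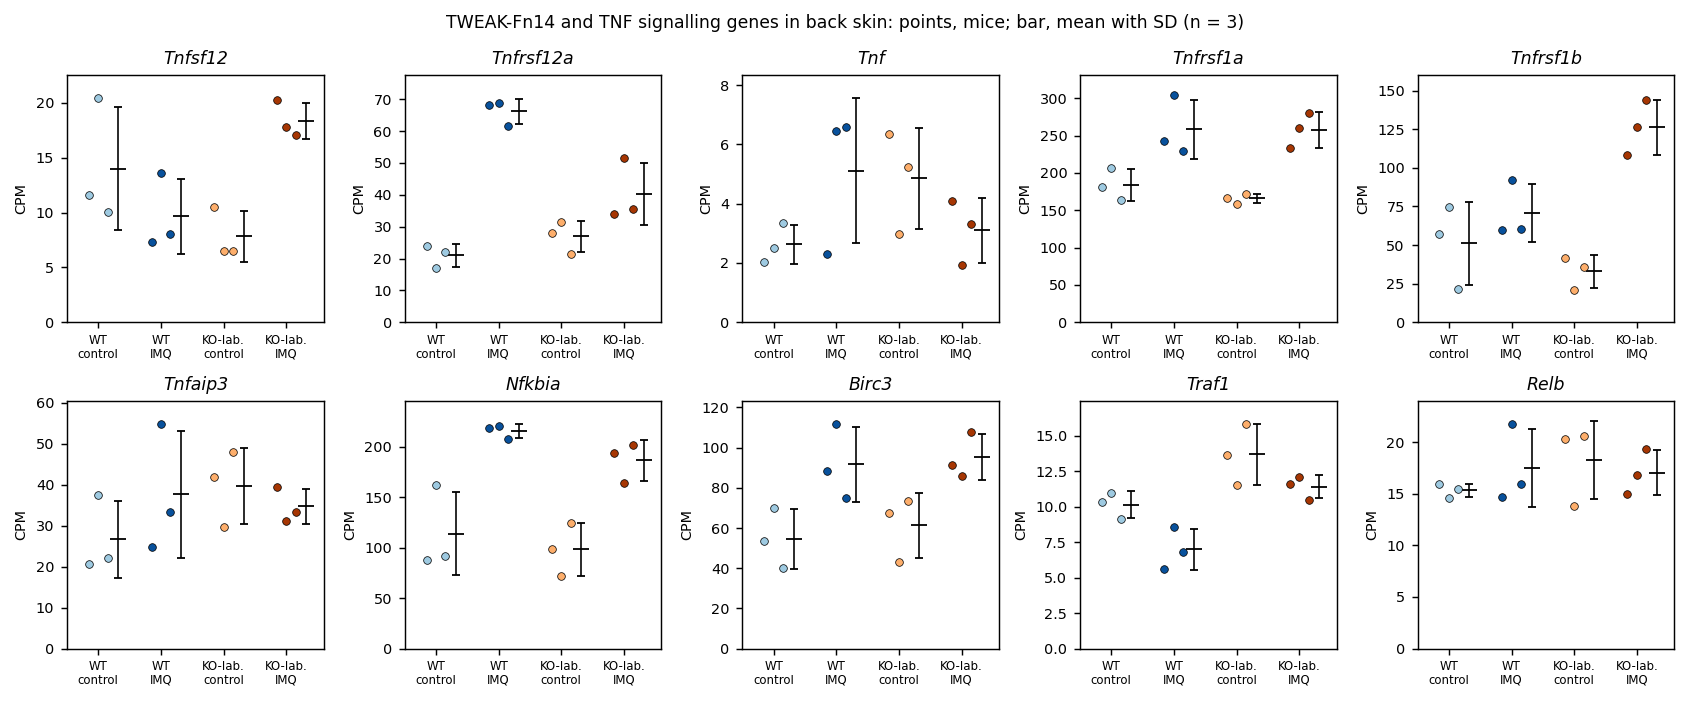
Levels in CPM (vertical axes, from 0) of the 10 genes in each of the 12 mice, by group (horizontal axes), with the mean and SD of 3 mice at the right of each group. *Tnfrsf12a* in WT IMQ mice lies between 61.5 and 68.8 CPM, above all 9 other mice, and *Tnfsf12* in KO-labelled IMQ mice lies between 17.0 and 20.2 CPM, above both the WT IMQ and the KO-labelled control mice.

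The second ligand, *Tnf*, was among the lowest of the 10 genes. It was at 2.03, 2.49 and 3.35 CPM in WT control, 2.30, 6.45 and 6.59 CPM in WT IMQ, 6.34, 2.98 and 5.22 CPM in KO-labelled control and 4.09, 1.93 and 3.30 CPM in KO-labelled IMQ mice. Each pair of groups overlapped. In WT IMQ skin mouse 1 stayed within the control range while the other two mice lay above it. The log2 fold change with IMQ was 0.96 (SE 0.43, adjusted p = 0.118) in WT and -0.65 (SE 0.43, adjusted p = 0.292) in KO-labelled mice, neither past the threshold.

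The TNF receptors differed from each other. *Tnfrsf1a*, the broadly expressed receptor, was at 181, 207 and 164 CPM in WT control and 243, 304 and 229 CPM in WT IMQ mice, and at 167, 159 and 172 CPM in KO-labelled control and 233, 260 and 281 CPM in KO-labelled IMQ mice. In both genotypes every IMQ mouse lay above every control mouse. It rose 1.40-fold in WT (log2 fold change 0.49, SE 0.13, adjusted p = 0.0183) and 1.55-fold in KO-labelled mice (log2 fold change 0.64, SE 0.14, adjusted p = 0.00616). The difference between these responses was 0.15 on the log2 scale (SE 0.19, adjusted p = 0.672). *Tnfrsf1b*, the receptor of immune and endothelial cells, was at 57.0, 74.8 and 21.7 CPM in WT control and 59.4, 92.2 and 60.1 CPM in WT IMQ mice, with overlap (log2 fold change 0.46, SE 0.38, adjusted p = 0.392). In KO-labelled skin it went from 41.9, 21.0 and 35.9 CPM in control to 108, 127 and 144 CPM in IMQ mice, with no overlap. That rise of 3.83-fold (log2 fold change 1.94, SE 0.39, adjusted p = 0.00491) had the highest fold among the 10 genes in KO-labelled skin.

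Of the inhibitors, *Nfkbia* rose with IMQ in both genotypes and *Tnfaip3* did not pass the test in either. *Nfkbia*, which holds NF-kappa B in the cytoplasm, was at 88.2, 162 and 91.9 CPM in WT control, 219, 221 and 208 CPM in WT IMQ, 99.0, 71.9 and 124 CPM in KO-labelled control and 194, 164 and 202 CPM in KO-labelled IMQ mice. All 6 IMQ mice lay above all 6 control mice. The rise was 1.89-fold in WT (log2 fold change 0.92, SE 0.24, adjusted p = 0.0138) and 1.90-fold in KO-labelled mice (log2 fold change 0.92, SE 0.24, adjusted p = 0.0161). *Tnfaip3*, whose product A20 ends TNF receptor signalling, was at 20.5, 37.4 and 22.1 CPM in WT control and 24.8, 54.8 and 33.2 CPM in WT IMQ mice (log2 fold change 0.49, SE 0.30, adjusted p = 0.249). It was at 41.8, 29.6 and 47.9 CPM in KO-labelled control and 39.5, 31.2 and 33.4 CPM in KO-labelled IMQ mice (log2 fold change -0.20, SE 0.30, adjusted p = 0.667). Both are the genes with a kappa B match in the promoters printed above.

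Of the adaptors, *Birc3* and *Traf1* passed the test in WT skin, in opposite directions. *Birc3*, which encodes the ubiquitin ligase cIAP2, was at 53.4, 70.0 and 40.0 CPM in WT control and 88.2, 112 and 75.2 CPM in WT IMQ mice, a 1.68-fold rise without overlap (log2 fold change 0.75, SE 0.24, adjusted p = 0.0347). In KO-labelled mice it was at 67.5, 42.9 and 73.5 CPM in control and 91.6, 85.9 and 107.9 CPM in IMQ mice, also without overlap but short of the threshold (log2 fold change 0.63, SE 0.24, adjusted p = 0.0711). *Traf1*, an adaptor that binds TRAF2 and the cIAPs, was the gene called lower: 10.4, 10.96 and 9.15 CPM in WT control against 5.63, 8.54 and 6.78 CPM in WT IMQ mice (log2 fold change -0.54, SE 0.19, adjusted p = 0.0497). The groups did not overlap, although the p lay at the edge of the threshold. In KO-labelled mice *Traf1* was at 13.7, 11.6 and 15.9 CPM in control and 11.6, 12.1 and 10.5 CPM in IMQ mice, with overlap (log2 fold change -0.26, SE 0.19, adjusted p = 0.316). *Traf1* lies 2.553 Mb from *Lcn2* on chromosome 2 of GRCm38, and whether sequence near *Lcn2* differs between the genotypes was not tested. *Relb*, the subunit of the noncanonical pathway, lay between 13.9 and 21.8 CPM in all 12 mice, and its log2 fold change with IMQ was 0.19 (SE 0.20, adjusted p = 0.503) in WT and -0.10 (SE 0.19, adjusted p = 0.740) in KO-labelled mice.

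Counted over the 10 genes, 4 were called higher (*Tnfrsf12a*, *Tnfrsf1a*, *Nfkbia* and *Birc3*) and 1 lower (*Traf1*) in WT IMQ against WT control skin. Among all 18529 genes tested, 14.2% were called higher and 14.3% lower. The median log2 fold change was 0.49 over the 10 genes and -0.02 over all genes. Without overlap between groups, 4 of the 10 genes were higher and 1 lower, where 20.1% and 20.6% of all genes were. In KO-labelled IMQ against KO-labelled control skin, 5 genes were called higher (*Tnfsf12*, *Tnfrsf12a*, *Tnfrsf1a*, *Tnfrsf1b* and *Nfkbia*) and 0 lower, against 14.1% and 11.2% of all genes, with a median of 0.61 against -0.05. The groups did not overlap for 6 genes higher and 0 lower, against 23.1% and 22.8% of all genes. DESeq2 also called 0 of the 10 genes lower there. In edgeR 6 of the 10 had an unadjusted p under 0.05, the 5 called genes and *Birc3*, as had 7135 of all 18529 genes.

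Each mouse was then left out in turn. *Tnfrsf12a* in WT skin and *Tnfrsf1a* and *Tnfrsf1b* in KO-labelled skin kept their calls in all 6 fits. In WT skin *Nfkbia* lost its call without control mouse 1 (adjusted p = 0.0581, edgeR) or 3 (0.0515). *Tnfrsf1a* lost it there without control mouse 1 (0.0627) or 3 (0.0675) or IMQ mouse 2 (0.0587). *Birc3* lost it without control mouse 1 (0.0949) or 3 (0.111) or IMQ mouse 1 (0.0770) or 2 (0.110). *Traf1* kept its call in the fit without IMQ mouse 2 (0.0174) and lost it in the other 5, without control mouse 1 (0.114), 2 (0.126) or 3 (0.0557) or IMQ mouse 1 (0.184) or 3 (0.128). *Tnf* was called higher in WT skin without IMQ mouse 1 (log2 fold change 1.31, adjusted p = 0.0399). In KO-labelled skin *Tnfsf12* lost its call without control mouse 2 (0.0577) or 3 (0.0640), and *Nfkbia* without control mouse 2 (0.0564) or IMQ mouse 3 (0.0564). *Tnfrsf12a* lost it there without control mouse 1 (0.0754) or 3 (0.160) or IMQ mouse 2 (0.192) or 3 (0.0625), and its log2 fold change was 0.36 without IMQ mouse 2.

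The genotypes were compared next under IMQ. None of the 10 genes passed the threshold in edgeR. An unadjusted p under 0.05 was found for 4 of them and for 4999 of all 18529 genes. The log2 difference of KO-labelled IMQ from WT IMQ mice was -0.72 (SE 0.19, adjusted p = 0.0525) for *Tnfrsf12a*. It was 0.71 (SE 0.19, adjusted p = 0.0525) for *Traf1*, 0.93 (SE 0.31, adjusted p = 0.0935) for *Tnfsf12* and 0.84 (SE 0.38, adjusted p = 0.181) for *Tnfrsf1b*. The groups did not overlap for 3 genes higher (*Tnfsf12*, *Tnfrsf1b* and *Traf1*) and 2 lower (*Tnfrsf12a* and *Nfkbia*), where 16.0% and 17.3% of all genes were higher and lower without overlap. Of all genes, 2.19% were called higher and 2.6% lower. DESeq2 called *Tnfsf12* (adjusted p = 0.0331) and *Traf1* (0.00804) higher and *Tnfrsf12a* (0.0122) lower. It also called more genes as a whole, 1230 higher and 1272 lower, against 405 and 481 in edgeR. Without WT IMQ mouse 2, which had the highest *Tnfsf12*, *Tnfrsf1b* and *Traf1* of its group, edgeR called *Tnfsf12* (1.26, adjusted p = 0.0286) and *Traf1* (0.88, adjusted p = 0.0169) higher. *Tnfrsf12a* was called in 0 of the 6 edgeR fits that left out a mouse, this one among them (adjusted p from 0.0597 to 0.200). The same held for *Tnfrsf1b* (adjusted p from 0.119 to 0.428). *Tnfrsf1a*, *Birc3* and *Relb* differed by at most 0.05 on the log2 scale, and that of *Tnfrsf1a*, near 0, changed sign with RLE size factors.

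Between the control groups, 0 of the 10 genes were called in edgeR or DESeq2. Of all genes, edgeR called 0.0054% higher and 0.0054% lower, and DESeq2 called 56 higher and 51 lower. In edgeR 2 of the 10 had an unadjusted p under 0.05, as had 1223 of all 18529 genes. The log2 difference of KO-labelled from WT control mice was -0.84 for *Tnfsf12* (SE 0.31, unadjusted p = 0.0206, adjusted p = 0.681) and 0.43 for *Traf1* (SE 0.18, unadjusted p = 0.0382, adjusted p = 0.742). *Traf1* was the gene whose control groups did not overlap, at 10.2 ± 0.92 CPM in WT and 13.7 ± 2.14 CPM in KO-labelled mice (SD, n = 3), where 4.19% of all genes were higher and 5.18% lower in this way.

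The IMQ responses of the genotypes were then compared as a difference of differences, KO-labelled minus WT. The estimates for ligand and receptor of the TWEAK-Fn14 pair had opposite signs, 1.77 on the log2 scale for *Tnfsf12* (SE 0.44, unadjusted p = 0.00187, adjusted p = 0.0598) and -1.08 for *Tnfrsf12a* (SE 0.27, unadjusted p = 0.00184, adjusted p = 0.0597). *Tnf* (-1.61, SE 0.61, unadjusted p = 0.0221, adjusted p = 0.143) and *Tnfrsf1b* (1.48, SE 0.54, unadjusted p = 0.0183, adjusted p = 0.132) also had unadjusted values under 0.05. Of all 18529 genes, 4470 had such a value. None of the 10 genes passed the adjusted threshold in edgeR, where 1.37% of all genes were called higher and 0.783% lower. DESeq2 called *Tnfsf12* (adjusted p = 0.00462) and *Tnfrsf12a* (0.00835). Over all genes it called 1054 higher and 873 lower, against 253 and 145 in edgeR. In edgeR, *Tnfsf12* was called without WT IMQ mouse 2 (0.0179), WT control mouse 3 (0.0331) or KO-labelled control mouse 1 (0.0396), *Tnfrsf12a* without WT IMQ mouse 2 (0.0484), and *Tnfrsf1b* without WT control mouse 3 (0.0273). For *Nfkbia* the difference was 0.0028 (SE 0.33, adjusted p = 0.998).

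**Figure D2:**
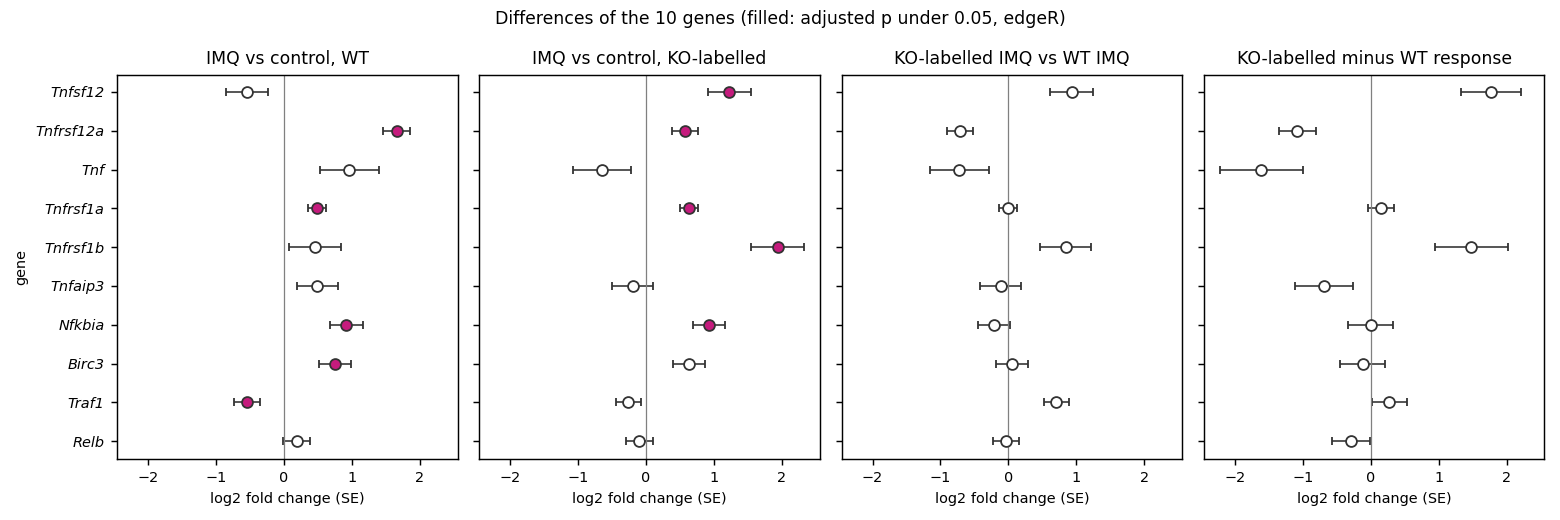
Log2 fold changes with SE (horizontal axes) of the 10 genes (vertical axis) in the IMQ responses of WT and KO-labelled mice, the genotype comparison under IMQ and the difference between the responses, filled where the adjusted p from edgeR was under 0.05. *Tnfrsf12a* is filled in both responses, at 1.66 in WT and 0.58 in KO-labelled mice, while *Tnfsf12* lies at -0.54 and 1.22, and no gene is filled in the genotype comparisons.

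Levels of different genes were compared per kilobase of exon, in CPM per kb. In WT control skin *Tnfrsf1a* (71.0 ± 8.42, SD, n = 3) and *Nfkbia* (70.8 ± 25.8) were highest and overlapped, *Tnfrsf1b*, *Birc3*, *Tnfrsf12a* and *Tnfsf12* followed between 13.4 and 9.25 with overlap between neighbours, and *Relb*, *Tnfaip3*, *Tnf* and *Traf1* (1.15 ± 0.10) were lowest. *Tnfrsf12a* was the fifth of the 10 genes in WT control and the third in WT IMQ skin, where at 34.2 ± 2.10 CPM per kb it was separate from both neighbours in the order. In KO-labelled IMQ skin *Tnfrsf1b* (33.1 ± 4.67) took the third place and *Tnfrsf12a* (20.8 ± 5.01) the fourth, the latter overlapping with *Birc3*. *Traf1* had the lowest mean in all 4 groups, with overlap with *Tnf* in WT control and KO-labelled IMQ skin. Fn14 transcripts per kb were 10.8 against 9.25 for TWEAK in WT control, 34.2 against 6.37 in WT IMQ, 14.0 against 5.17 in KO-labelled control and 20.8 against 12.1 in KO-labelled IMQ skin. The ligand values divide by all 1515 exonic bases of *Tnfsf12*, and the order of the pair depends on that. Had reads in the 731 shared bases not been counted, the length would be 784 bases and TWEAK would be at 17.9 ± 7.15 in WT control, 12.3 ± 4.36 in WT IMQ, 9.98 ± 2.97 in KO-labelled control and 23.4 ± 2.11 CPM per kb in KO-labelled IMQ skin (SD, n = 3), a length chosen after seeing the data. The mean of the ligand would then be above that of the receptor in WT control and KO-labelled IMQ skin, with overlap in the latter. In WT IMQ skin the receptor was above the ligand, without overlap, with either length.

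Whole skin mixes cell types, and fewer cells of a type cannot be told apart from less RNA per cell. Macrophage markers moved with *Tnfrsf1b*, as did the endothelial markers given below. The summed level of 8 macrophage markers was 1855, 3514 and 835 CPM in WT control, 2036, 3271 and 1903 CPM in WT IMQ, 1493, 812 and 975 CPM in KO-labelled control and 3169, 4012 and 4253 CPM in KO-labelled IMQ mice. Within WT control and within both KO-labelled groups the mice had the same order in *Tnfrsf1b* as in this sum, and in WT IMQ skin, where the order differed, mouse 2 was the highest in both. All 8 macrophage markers were called higher in the KO-labelled IMQ response and 1 of 8 in the WT response, and none of the 8 was at 0 in any group. Of all genes, 14.1% and 14.2% were called higher in these responses. Fibroblast markers, like *Tnfsf12*, had their highest mean in KO-labelled IMQ skin. Their sum over 8 genes was 10339 to 17393 CPM in WT control, 10366 to 11025 CPM in WT IMQ, 10896 to 12022 CPM in KO-labelled control and 20334 to 21084 CPM in KO-labelled IMQ mice. The order of the mice in *Tnfsf12* and in this sum was the same within WT control, WT IMQ and KO-labelled control skin and opposite within KO-labelled IMQ skin. In the difference of responses 3 of the 8 fibroblast markers were called higher, against 1.37% of all genes. Without WT IMQ mouse 3, only 2 of all genes were called higher in that difference. Endothelial markers lay between 957 and 1003 CPM in KO-labelled IMQ and between 464 and 794 CPM in WT IMQ mice. Endothelial and macrophage sums had their highest means in KO-labelled IMQ skin (980 and 3811 CPM). Their lowest means were in KO-labelled control skin (371 and 1094 CPM). The means of *Tnfsf12* and *Tnfrsf1b* were highest and lowest in the same groups. The likeness of *Tnfsf12* to fibroblast markers and of *Tnfrsf1b* to macrophage markers was therefore not particular to those markers. The endothelial sum had the same order of mice as *Tnfrsf1b* within WT control, WT IMQ and KO-labelled control skin. Within KO-labelled IMQ skin the order was opposite. Keratinocyte markers moved with *Tnfrsf12a* between the groups, with sums over 10 genes of 5984 to 9745 CPM in WT control, 32209 to 42865 CPM in WT IMQ, 6420 to 8548 CPM in KO-labelled control and 18798 to 30383 CPM in KO-labelled IMQ mice. Within each of the 4 groups the order of the mice differed between *Tnfrsf12a* and this sum. The single markers varied, with log2 fold changes of 0.45 to 3.77 in the WT response and -0.41 to 3.19 in the KO-labelled response. Of the 10, 9 were called higher in WT and 6 in KO-labelled mice, against 14.2% and 14.1% of all genes. Between the genotypes under IMQ the markers ranged from -1.09 to 0.79 on the log2 scale, with 2 of 10 called lower, against 2.6% of all genes. The sum of 8 neutrophil markers was 7.92 to 24.8 CPM in WT control and 310 to 340 CPM in WT IMQ mice. It was 10.8 to 30.5 CPM in KO-labelled control and 275 to 592 CPM in KO-labelled IMQ mice. The 6 markers that passed the filter on low counts were all called higher in each response, against 14.2% of all genes in WT and 14.1% in KO-labelled mice. A gene low in controls can pass that filter through the IMQ groups in which it is high, so these calls are no separate support. Which gene is set beside which cell type was chosen after the values were seen. The part of these cell types in the differences of the 10 genes was not tested.

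**Figure D3:**
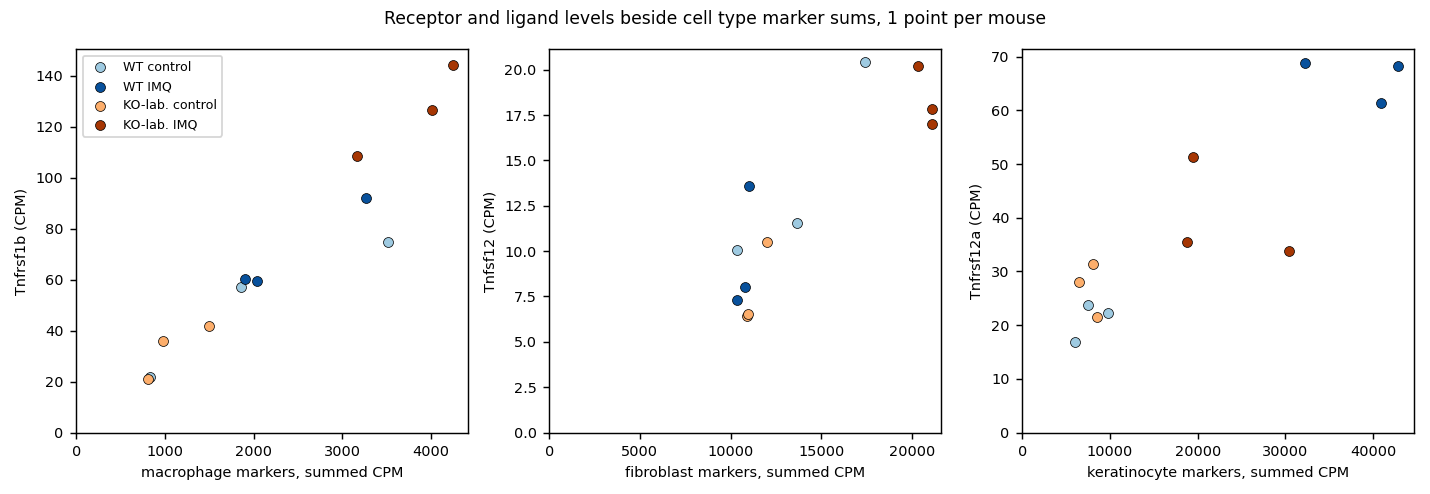
Levels of *Tnfrsf1b*, *Tnfsf12* and *Tnfrsf12a* in CPM (vertical axes) against the summed CPM of macrophage, fibroblast and keratinocyte markers (horizontal axes), with 1 point per mouse and a colour per group; these pairs were chosen after their values were seen. KO-labelled IMQ mice have the highest *Tnfrsf1b*, 108 to 144 CPM, with macrophage sums of 3169 to 4253 CPM.

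The genes most like the receptor and the ligand across mice were found by Pearson's r of log2(CPM + 0.5) over the 12 mice, among 12729 genes with a mean of at least 5 CPM. The r is a description, since the mice fall into groups and share the treatment. The 5 genes nearest to *Tnfrsf12a* were *Pdcd10* (r = 0.973), *Areg* (0.963), which encodes the EGF receptor ligand amphiregulin, *Nppb* (0.960), *Lmna* (0.959), which encodes lamin A, and *Cd44* (0.958), which encodes the hyaluronan receptor. *Areg* shows the pattern plainly, with group means of 4.48 CPM in WT control, 58.6 in WT IMQ, 6.47 in KO-labelled control and 17.5 in KO-labelled IMQ skin. With the group means removed, r lay between 0.428 for *Cd44* and 0.816 for *Lmna*. The 5 genes nearest to *Tnfsf12* were *Acvrl1* (r = 0.971), a TGF-beta family receptor of endothelium, *Prkacb* (0.961), *Fuca1* (0.958), *Igf1* (0.955), which encodes insulin-like growth factor, and *Nfatc2* (0.954). For these r was between 0.893 and 0.960 with the group means removed. In both sets the genes were picked by r over the same mice, which favours a high r here as well, so these values are no separate support. *Igf1* had group means of 154 CPM in WT control, 101 in WT IMQ, 89.9 in KO-labelled control and 174 in KO-labelled IMQ skin.

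The wider pathway was described by 121 further genes in 7 lists, of which 117 were tested. The lists were chosen with earlier results of these data known, so a share above that of all genes is no separate support. In WT IMQ skin 32 were called higher and 10 lower (median log2 fold change 0.28), which is 27.4% and 8.55% against 14.2% and 14.3% of all genes. In KO-labelled IMQ skin 38 were called higher and 17 lower (median 0.27), which is 32.5% and 14.5% against 14.1% and 11.2% of all genes. The shares of all genes in these responses are the ones to set beside each list below. Of the calls picked for their size within each list, 23 of 31 in the WT response and 21 of 39 in the KO-labelled response held in every fit that left out a mouse, and the genes named below are a part of them. Of the 117, 22 were called higher in both genotypes, 5 lower in both and 0 in opposite directions. Of 13 other TNF superfamily ligands tested, 0 were called higher and 3 lower (23.1%) in WT, and 1 was called higher (7.69%) and 3 lower (23.1%) in KO-labelled mice. *Eda*, the ectodysplasin ligand of hair follicle development, fell by 1.24 on the log2 scale in WT (SE 0.23, adjusted p = 0.00256) and was at -0.47 (adjusted p = 0.154) in KO-labelled mice, and *Tnfsf15* fell in both genotypes (-1.58 in WT and -1.98 in KO-labelled mice, SE 0.33 and 0.32). *Tnfsf14*, the LIGHT ligand, rose in KO-labelled mice (1.73, SE 0.39, adjusted p = 0.00857) and had 0.38 in WT (adjusted p = 0.501). *Cd40lg* was also called lower in both genotypes, but with 0 to 2 counts in each IMQ mouse and 3 to 24 in each control mouse it was too low for a fold. Without 1 mouse its call was lost in 4 of 6 fits in each genotype, with adjusted p up to 0.171 without WT control mouse 3 and 0.0786 without KO-labelled IMQ mouse 3.

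Of 25 further receptors, 1 was called higher (4%) and 3 lower (12%) in WT, both below the share of all genes, and 8 higher (32%) and 7 lower (28%) in KO-labelled mice. *Tnfrsf23*, a decoy receptor for TRAIL, rose in both genotypes (log2 fold change 1.32, SE 0.23 in WT and 1.36, SE 0.23 in KO-labelled mice). *Edar*, the receptor of ectodysplasin, fell by 2.61 in WT and by 2.96 in KO-labelled mice on the log2 scale (SE 0.55 and 0.56), *Tnfrsf19*, which marks hair follicle stem cells, had -2.60 and -2.58 (SE 0.36 in each), and *Ngfr*, the low-affinity neurotrophin receptor, fell by 2.45 and by 1.70 (SE 0.47 in each). In KO-labelled mice *Relt* (1.56, SE 0.28) and *Tnfrsf14* (1.36, SE 0.37), the receptor of LIGHT, also rose, with WT estimates of 0.45 (adjusted p = 0.242) and 0.04 (0.948). In that genotype *Ngfr* lost its call without control mouse 1 (0.0598) or IMQ mouse 2 (0.0576) or 3 (0.0890), and *Tnfrsf14* without control mouse 2 (0.0670) or 3 (0.0587) or IMQ mouse 3 (0.0761).

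Of 23 adaptors and kinases, 4 rose (17.4%) and 1 fell (4.35%) in WT, and 4 rose (17.4%) and 3 fell (13%) in KO-labelled mice, near the shares of all genes apart from the lower count in WT, which was below it. The 4 that rose were the same in both: *Traf6*, the ubiquitin ligase of Toll-like and IL-1 receptor signalling (1.15, SE 0.17 in WT and 0.63, SE 0.16 in KO-labelled mice), *Tradd* (0.59 and 0.70, SE 0.14 in each), *Casp8* (0.46 and 0.70, SE 0.14 in each) and *Ripk1* (0.46 and 0.65, SE 0.12 in each), the last 3 being parts of the complexes that form below TNFR1. *Traf5* fell in WT (-1.36, SE 0.21, adjusted p = 0.000808) and had -0.43 in KO-labelled mice (adjusted p = 0.149). *Birc2*, the neighbouring paralog of *Birc3* that encodes cIAP1, fell in KO-labelled mice (-0.47, SE 0.12, adjusted p = 0.0133; -0.14 in WT, adjusted p = 0.395), the direction opposite to that of the *Birc3* estimate. In WT mice *Casp8* lost its call without control mouse 1 (0.103) or 3 (0.0935) or IMQ mouse 1 (0.0845) or 3 (0.0564), and *Ripk1* without control mouse 1 (0.0636) or 3 (0.0503). In KO-labelled mice *Traf6* lost it without control mouse 1 (0.0513) or IMQ mouse 1 (0.0597), and *Birc2* without control mouse 3 (0.0584) or IMQ mouse 2 (0.0568).

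Of 10 negative regulators, 5 rose (50.0%) in WT, and 4 rose (40.0%) and 1 fell in KO-labelled mice. *Zc3h12a*, the RNase Regnase-1 that degrades inflammatory transcripts, was at 19.2, 28.5 and 21.3 CPM in WT control and 152, 152 and 131 CPM in WT IMQ mice (log2 fold change 2.66, SE 0.18, adjusted p = 2.18e-06), and at 46.2, 47.1 and 58.6 CPM in KO-labelled control and 106, 76.7 and 90.5 CPM in KO-labelled IMQ mice (0.85, SE 0.17, adjusted p = 0.00411). It was separate between all 4 groups. *N4bp1* and *Otulin* rose in both genotypes (0.76 and 0.51 in WT, 0.50 and 0.44 in KO-labelled mice, SE 0.11 in each). In KO-labelled mice *Otulin* lost its call without IMQ mouse 1 (0.0621) or 3 (0.0504).

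NF-kappa B subunits and I kappa B proteins gave 6 of 9 genes higher (66.7%) and 1 lower in WT, and 5 higher (55.6%) and 0 lower in KO-labelled mice. *Bcl3*, a nuclear I kappa B protein, was at 9.15, 8.98 and 6.11 CPM in WT control and 68.2, 70.0 and 60.8 CPM in WT IMQ mice (log2 fold change 3.03, SE 0.25, adjusted p = 7.84e-06), and at 15.3, 9.59 and 19.6 CPM in KO-labelled control and 35.0, 31.5 and 27.7 CPM in KO-labelled IMQ mice (1.08, SE 0.23, adjusted p = 0.00644). *Nfkbiz*, which encodes the I kappa B zeta needed for many IL-17 target genes, rose in WT (2.36, SE 0.30, adjusted p = 0.000213) and had 0.49 in KO-labelled mice (adjusted p = 0.234). *Nfkb1*, which encodes the p105 precursor, rose in WT by 0.72 (SE 0.09) and kept its call in all 6 fits that left out a mouse, as did *Bcl3* in both genotypes. *Nfkb1* was also called higher in KO-labelled mice (0.30, SE 0.09, adjusted p = 0.0350), a call lost whichever of the 6 mice was left out (adjusted p from 0.0582 to 0.112).

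Of 22 known NF-kappa B target genes tested, 11 rose (50.0%) and 0 fell in WT, and 9 rose (40.9%) and 3 fell (13.6%) in KO-labelled mice. The neutrophil chemokine *Cxcl2* rose by 5.11 (SE 0.92) in WT and 5.18 (SE 0.94) in KO-labelled mice, the cytokine *Il1b* by 3.70 (SE 0.55) and 2.21 (SE 0.51), and the collagenase *Mmp13* by 3.68 (SE 0.52) and 2.96 (SE 0.50), all on the log2 scale. *Cxcl5* was called higher in both, with 0 to 2 counts in each control mouse and 41 to 108 in WT IMQ and 17 to 399 in KO-labelled IMQ mice, so no fold is given. The 3 that fell in KO-labelled mice were chemokines: *Cxcl10* (-4.93, SE 0.51), *Ccl20* (-3.09, SE 0.51) and *Ccl2* (-1.47, SE 0.49). *Ccl2* kept its call in 1 of 6 fits, without control mouse 2, and its adjusted p reached 0.166 without control mouse 3. *Cxcl10*, an interferon-induced chemokine, was the pathway gene called between the control groups. It was at 3.65, 4.64 and 5.58 CPM in WT control and 99.7, 46.9 and 171 CPM in KO-labelled control mice (log2 difference 4.52, SE 0.50, adjusted p = 0.0132). Its levels in IMQ mice were 1.70 to 3.63 CPM in WT and 1.74 to 4.79 CPM in KO-labelled mice. The call between controls was lost without WT control mouse 1 (0.263) or 2 (0.0997) or KO-labelled control mouse 3 (0.0545).

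MAP kinases and AP-1 genes gave 5 higher (33.3%) and 2 lower (13.3%) of 15 in WT, and 7 higher (46.7%) and 0 lower in KO-labelled mice. *Fosl1*, an AP-1 subunit of activated keratinocytes, rose by 4.66 (SE 0.42) in WT and 2.65 (SE 0.37) in KO-labelled mice on the log2 scale. *Map2k4* rose in WT (0.96, SE 0.11) and was also called higher in KO-labelled mice (0.40, SE 0.11, adjusted p = 0.0209), there in 1 of 6 fits that left out a mouse (adjusted p up to 0.0825 without IMQ mouse 1). *Junb* (1.54, SE 0.27) and *Jund* (1.03, SE 0.18) rose in KO-labelled mice, with WT estimates of 0.71 (adjusted p = 0.0668) and 0.05 (0.879).

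**Figure D4:**
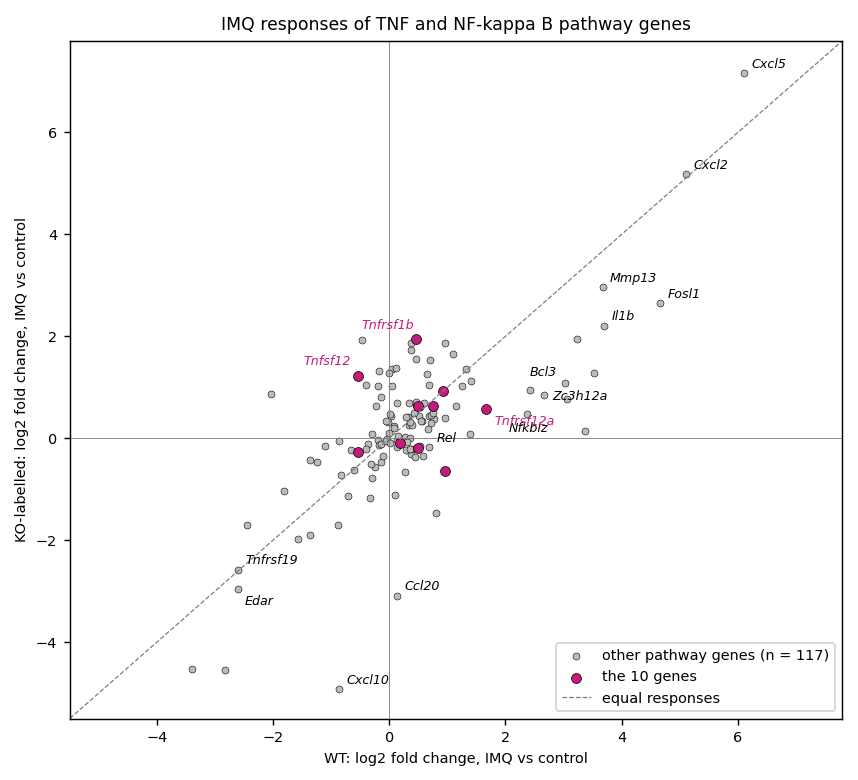
Log2 fold change with IMQ in WT mice (horizontal axis) against that in KO-labelled mice (vertical axis) for 117 pathway genes and the 10 genes described first, with a dashed line at equal responses. *Bcl3*, *Zc3h12a*, *Nfkbiz* and *Fosl1* lie below the line, *Cxcl2* lies near it, and *Tnfsf12* and *Tnfrsf1b* lie above it.

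Between genotypes under IMQ, 5 of the 117 pathway genes (4.27%) were called lower and 0 higher in KO-labelled mice in edgeR, against 2.6% and 2.19% of all genes. They were *Bcl3* (log2 difference -1.08, SE 0.23, adjusted p = 0.0325), *Rel* (-0.53, SE 0.11, adjusted p = 0.0341), which encodes c-Rel, *Ccl20* (-2.19, SE 0.50, adjusted p = 0.0393), *Zc3h12a* (-0.67, SE 0.17, adjusted p = 0.0456) and *Map2k4* (-0.46, SE 0.11, adjusted p = 0.0415). DESeq2 called 11 lower and 7 higher, where it called 1272 of all genes lower and 1230 higher. Without WT IMQ mouse 2, edgeR called 10 lower and 4 higher, and without any other mouse of that comparison it called 0 in either direction.

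In the difference between the responses, 6 of the 117 pathway genes (5.13%) were lower in KO-labelled mice and 0 higher in edgeR, against 0.783% and 1.37% of all genes: *Bcl3*, *Nfkbiz*, *Rel*, *Zc3h12a*, *Ccl20* and *Cxcl10*. *Rel* was at 27.0, 26.3 and 29.3 CPM in WT control and 44.1, 44.0 and 44.6 CPM in WT IMQ mice, and at 32.5, 34.4 and 37.0 CPM in KO-labelled control and 34.5, 27.0 and 30.7 CPM in KO-labelled IMQ mice. The WT IMQ mice were close together and above all others. *Ccl20*, the chemokine that attracts IL-17-producing cells, was at 5.91, 7.57 and 4.04 CPM in WT control, 6.24, 8.54 and 4.60 CPM in WT IMQ, 11.4, 8.74 and 16.1 CPM in KO-labelled control and 1.53, 2.34 and 0.36 CPM in KO-labelled IMQ mice. For *Ccl20* and *Cxcl10* the KO-labelled control mice were the highest group, while for *Bcl3*, *Nfkbiz*, *Rel* and *Zc3h12a* the WT IMQ mice were. The control groups enter these differences too. Mean CPM in KO-labelled against WT control was 14.8 against 8.08 for *Bcl3* and 71.4 against 34.7 for *Nfkbiz*. It was 34.6 against 27.6 for *Rel* and 50.6 against 23.0 for *Zc3h12a*, none of them called between controls in edgeR. In the difference of responses, the number called lower was 0 without WT IMQ mouse 1 or 3 or KO-labelled IMQ mouse 2. It was 1 without WT control mouse 1, KO-labelled control mouse 3 or KO-labelled IMQ mouse 1. It was 3 without KO-labelled control mouse 2 or KO-labelled IMQ mouse 3, and 9 without WT IMQ mouse 2. The number called higher was 5 without WT IMQ mouse 2, 7 without WT control mouse 3 and 1 without KO-labelled control mouse 1.

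**Figure D5:**
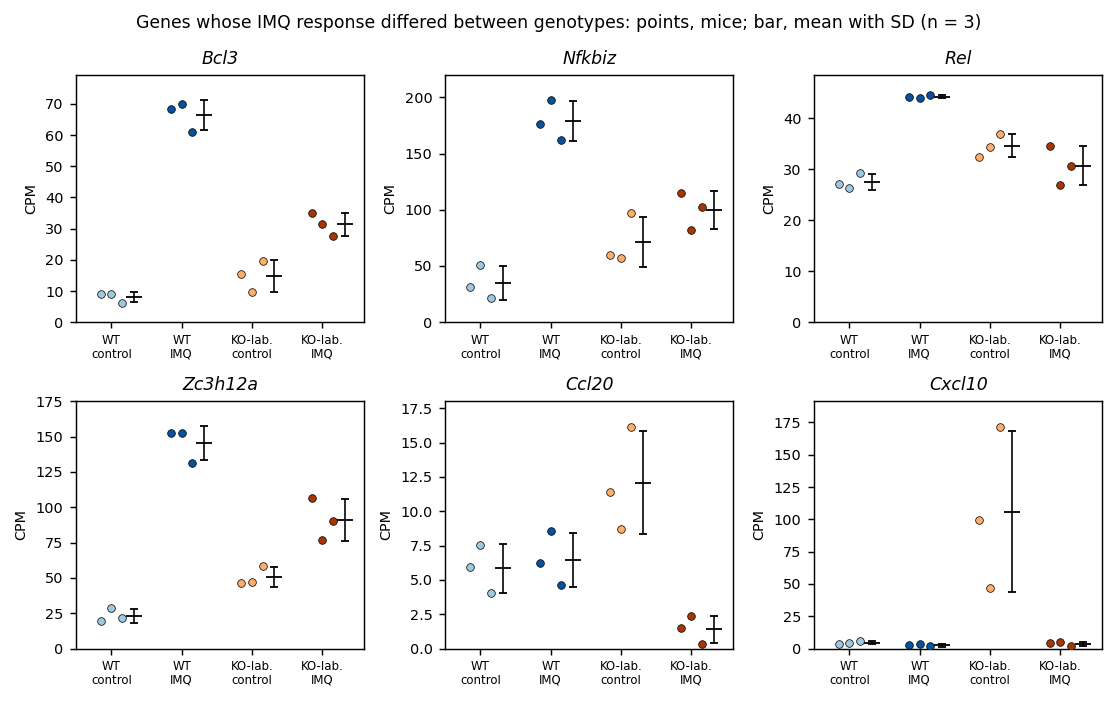
Levels in CPM (vertical axes, from 0) of the 6 pathway genes whose IMQ response differed between the genotypes, in each mouse by group (horizontal axes), with the mean and SD of 3 mice at the right of each group. *Bcl3* in WT IMQ mice lies between 60.8 and 70.0 CPM, and *Cxcl10* in KO-labelled control mice lies between 46.9 and 171 CPM.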

How the data were processed

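RNA of back skin of 12 mice (4 groups of 3) was sequenced in bulk, and the authors deposited 1 table of raw counts per gene for 56923 Ensembl identifiers. The submitters' processing notes name HISAT and the build mm8. The counter, its strand setting and the annotation are not given in the sources used here. Positions and exon lengths came from GENCODE M21 (GRCm38), which holds 52073 identifiers (91.5%), and promoter sequences from RefSeq (GRCm38.p6). Each of the 12 columns was matched to a sample by name.

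Counts were normalized by TMM and fitted with edgeR 4.0.16 (limma 3.58.1, R 4.3.3) as 4 group means over all 12 mice, by a robust quasi-likelihood fit of 18529 genes, after filterByExpr with a minimum count of 10 and a minimum total of 15. The common biological coefficient of variation was 0.253. A gene was called at a Benjamini-Hochberg adjusted p under 0.05 over all tested genes, and each contrast is the first group minus the second. Folds of genes with no more than 3 counts in every mouse of a group were not given. Nothing in the labels ties mice to cages or litters. Alternatives were RLE size factors, no filter, at least 10 counts in every library, DESeq2 1.42.0, the compared mice only, the replicate number as a block and each mouse left out. A *Tnfsf12* length without shared bases was added after seeing the data. Pairs of libraries within a group differed by far more than sampling noise (chi-square per degree of freedom of at least 12.0), so none was a duplicate.

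The 10 genes and the gene lists were chosen with earlier results of these data known. Named pathway genes are those called with the largest change, up to 4 per list, comparison and direction, and the text names a part of them. The 8 to 10 markers per cell type were summed as CPM. Depth of 16448226 to 28592110 counts limits genes under about 0.202 CPM, the level of 3 counts in the shallowest library, and covers counting error only. Plots used Python 3.11.15 and matplotlib 3.10.9.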

Additional observations from a re-analysis of the deposited data

Results flagged for a closer look

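The IMQ response of 6 pathway genes differed between the genotypes in the test of the difference itself (edgeR, KO-labelled minus WT, log2). The difference was -1.96 for *Bcl3* (SE 0.33, adjusted p = 0.0246), -1.88 for *Nfkbiz* (SE 0.41, adjusted p = 0.0432), -0.85 for *Rel* (SE 0.16, adjusted p = 0.0304), -1.81 for *Zc3h12a* (SE 0.24, adjusted p = 0.0170), -3.23 for *Ccl20* (SE 0.68, adjusted p = 0.0423) and -4.06 for *Cxcl10* (SE 0.69, adjusted p = 0.0247). With each of the 12 mice left out in turn, the adjusted p passed the threshold in 9 fits for *Zc3h12a*, 5 for *Bcl3*, 5 for *Cxcl10*, 4 for *Nfkbiz*, 4 for *Ccl20* and 3 for *Rel*, with the highest values 0.0662, 0.0793, 0.0861, 0.133, 0.127 and 0.0988. None of the 10 genes of TWEAK-Fn14 and TNF signalling met this criterion.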

How the results depend on the processing

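Groups of 3 mice and a shared estimate of spread limit what these values can show: a gene missing the threshold is not shown to be equal, and calls near it move with small changes. Of 650 values of the 10 genes under alternatives, 567 kept their direction and their side of the threshold, 24 gained and 32 lost a call, and 27 changed direction.

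Of the 10 genes, 2 were higher in WT IMQ against WT control on the compared mice only, and 0 were lower there, with RLE size factors, with no filter and with the replicate block, against 4 and 1. In KO-labelled IMQ against WT IMQ, 1 was higher and 1 lower with at least 10 counts in every library, 2 and 1 on the compared mice and with DESeq2, and 1 lower with no filter. In the difference of responses, DESeq2 and no filter gave 1 higher and 1 lower, and at least 10 counts in every library gave 1 lower. With a mouse left out, between 1 and 4 genes were higher and 0 and 1 lower in the WT response, 3 and 5 higher in the KO-labelled response, 0 and 2 higher in KO-labelled IMQ against WT IMQ, and 0 and 2 higher and 0 and 1 lower in the difference of responses.

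Of the 117 pathway genes, the replicate block called 6 lower in the WT response, 0 lower in KO-labelled IMQ against WT IMQ, 0 higher between controls and 0 lower in the difference of responses. The replicate numbers name different animals, and same-numbered mice did not deviate together (r from -0.555 to 0.199), so the numbers do not pair the mice. Over all genes, KO-labelled IMQ against WT IMQ gave 405 higher and 481 lower, 77 and 59 with the replicate block, 1077 and 817 on the compared mice, 1230 and 1272 with DESeq2, and 0 to 1288 and 0 to 1438 with a mouse left out. The difference of responses gave 253 and 145, 7 and 3 with the block, 1054 and 873 with DESeq2, and 2 to 1015 and 0 to 912 with a mouse left out. Controls gave 1 and 1, 0 and 0 with the block or the compared mice, 3 and 3 with no filter, 56 and 51 with DESeq2, and 0 to 30 and 0 to 11 with a mouse left out. With a mouse left out, as few as 1775 genes were higher and 1514 lower in the WT response, against 2633 and 2654, and 1736 and 971 in the KO-labelled response, against 2611 and 2080. The replicate block took the call of *Birc3* (adjusted p = 0.0644) and *Traf1* (0.0822) in WT and of *Tnfrsf12a* in KO-labelled mice (0.0628). In KO-labelled IMQ against WT IMQ, the compared mice alone gave 4 pathway genes higher and 11 lower, DESeq2 7 and 11, and no filter 3 lower. No filter gave 11 lower in the KO-labelled response. Between controls, DESeq2 gave 2 higher and the compared mice alone 0. In the difference of responses, DESeq2 gave 7 higher and 15 lower, and no filter 2 higher. With a mouse left out, KO-labelled IMQ against WT IMQ gave 0 to 4 higher and 0 to 10 lower, the KO-labelled response 6 to 14 lower, controls 0 to 2 higher, and the difference of responses 0 to 7 higher and 0 to 9 lower.

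Changes of direction concerned estimates near 0 that had not passed the threshold. For *Tnfrsf1a* in KO-labelled IMQ against WT IMQ, the log2 difference was 0.012 on the compared mice, 0.0085 with DESeq2, 0.013 with no filter, 0.0033 with the replicate block and 0.0057 with RLE size factors, and -0.085 to 0.134 with a mouse left out. For *Nfkbia* in the difference of responses, it was -0.0093 with at least 10 counts in every library, -0.0052 with DESeq2, -0.00054 with the replicate block and -0.0089 with RLE size factors, and -0.34 to 0.21 with a mouse left out. With a mouse left out, the range was -0.34 to 0.26 for *Tnfaip3*, -0.074 to 0.225 for *Birc3* and -0.14 to 0.16 for *Relb* in KO-labelled IMQ against WT IMQ, -0.41 to 0.15 for *Nfkbia* and -0.0081 to 0.42 for *Birc3* between controls, -0.34 to 0.063 for *Birc3* in the difference of responses, and -0.0044 to 0.30 for *Relb* in the WT response. The cause was not tested.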

Other observations

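Most of the skeletal muscle and T cell markers fell in WT IMQ skin. Of all genes, 14.3% were called lower in the WT response. In the KO-labelled response 11.2% were called lower and 14.1% higher. The summed level of 8 skeletal muscle markers was 12336 to 13461 CPM in WT control and 4736 to 5865 CPM in WT IMQ mice, with 6 of 8 called lower, and 6283 to 11640 CPM in KO-labelled control and 5306 to 8344 CPM in KO-labelled IMQ mice, with 4 of 8 called lower. The sum of 8 T cell markers was 49.9 to 82.9 CPM in WT control and 20.4 to 48.5 CPM in WT IMQ mice, with 6 of 8 called lower, and 34.8 to 65.7 CPM in KO-labelled control and 46.2 to 68.5 CPM in KO-labelled IMQ mice, with 1 higher and 1 lower. Adipocyte markers overlapped between all pairs of groups, at 2890 to 11674 CPM over the 12 mice, and 1 of 8 was called lower in each response.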
